A study of Mus musculus with 4 samples.

Results

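Late germ cells were a minority of the cells in droplet single-cell RNA-seq of sorted mouse undifferentiated spermatogonia (Aundiff). They were chosen by measured values, as the cells in which the transcripts of Ldhc, Meig1, Crisp2, Acrv1 and Spink2 together made up at least 0.5% of all unique molecular identifiers (UMIs, 1 for each captured RNA molecule). Before that rule, cells were kept if they had over 1000 genes and under 20% mitochondrial UMIs. The rule found 416 late germ cells among the 7493 cells kept from 9229 deposited barcodes, and the remaining 7077 are called other cells. These 5 transcripts chose the cells, so their levels, and every difference between late and other cells, are a description without a test.

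The cells came from testes of adult C57BL/6J mice aged 6 to 8 weeks, which were either left untreated (CTRL) or studied on day 10 after busulfan at 10 mg/kg (BU). Busulfan is an alkylating agent that kills many dividing germ cells. The sort kept cells that carried E-cadherin and CD49f (α6-integrin) on their surface and lacked c-KIT. Each library was made from the pooled cells of 3 mice, and 2 experiments gave 1 CTRL and 1 BU library each, here CTRL 1 and BU 1, CTRL 2 and BU 2. The sample labels give kit version 2 for experiment 1 and version 3.1 for experiment 2, while the study's methods name version 2 for all libraries. With 2 libraries per group, p-values rest on the spread between libraries. The libraries of a group differ in mice, experiment, sequencing lane and labelled kit version, which cannot be told apart. Where 4 values are given without names they follow the order CTRL 1, BU 1, CTRL 2 and BU 2.

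In the testis, Aundiff lie on the wall of the seminiferous tubule and give rise to differentiating spermatogonia, which enter meiosis as spermatocytes. The haploid spermatids that leave meiosis build an acrosome, the vesicle that carries the enzymes for reaching the egg, and a tail, and they replace most histones first by transition proteins and then by protamines. Many of these genes are used in no other tissue, and several replace a widely used counterpart that is encoded on the X chromosome, which is silenced during meiosis.

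The 4 libraries contributed very unequal numbers of late germ cells. There were 55 in CTRL 1, 16 in BU 1, 180 in CTRL 2 and 165 in BU 2, against 3046, 1992, 940 and 1099 other cells. They held 762339, 205447, 5622756 and 7266328 UMIs, out of 26802228, 21136369, 39904588 and 53579969 in all barcodes of each library. BU 1 therefore stood apart, since its late germ cells were few and its 10 deepest cells held 87.4% of their UMIs. In the other libraries the 10 deepest late cells held 36.2% (CTRL 1), 27.7% (CTRL 2) and 33.2% (BU 2).

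CTRL 2 and BU 2, which were sequenced together, shared 677 cell barcodes. Of these, 70 passed the filters in both libraries and 32 counted as late germ cells in both. Over the 119 shared barcodes that were late in either library, the smaller one held between 1.06% and 1.85% of the UMIs of the larger one. Such shallow copies numbered 17 among the late cells of CTRL 2 and 15 among those of BU 2, and without them the libraries held 163 and 150 late germ cells. CTRL 1 and BU 1 shared 11 barcodes, of which none was late in both, and BU 1 and CTRL 2 shared 1.

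The late germ cells carried the transcripts their name calls for and little of those that define Aundiff. Besides the rule genes, Spem1, which encodes a protein of late spermatid maturation, stood at 259, 186, 362 and 173 CPM (UMIs of a gene per 1000000 UMIs) in late cells and at 2.84, 2.07, 5.64 and 3.47 CPM in other cells. Of the rule genes, the sperm-type lactate dehydrogenase Ldhc stood at 5276, 4175, 4124 and 4644 CPM in late cells. Acrv1, which encodes an acrosomal protein, stood at 296, 332, 293 and 383 CPM. Both lay in a narrow band over the 4 libraries, which the rule on these genes partly sets. The stem and progenitor marker Zbtb16 stood at 35.5, 43.9, 6.84 and 5.30 CPM in late cells against 218, 192, 221 and 119 CPM in other cells.

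The genes of the sort itself were near the detection limit in late germ cells. Cdh1, which encodes E-cadherin, stood at 1.32, 9.77, 0 and 0.140 CPM in late cells and at 5.01, 4.86, 6.34 and 6.15 CPM in other cells. Itga6, which encodes α6-integrin, stood at 2.63, 9.77, 1.26 and 1.67 CPM in late cells and between 32.5 and 66.5 CPM in other cells. Kit had no UMI in the late cells of experiment 1 and stood at 3.78 and 5.16 CPM in those of CTRL 2 and BU 2. RNA levels do not give surface protein, and a shortened Kit transcript of spermatids cannot be told apart here from the full one.

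Late germ cells also differed in their RNA content as a whole. The median late cell had 0.131%, 0.566%, 0.140% and 0.164% mitochondrial UMIs, whereas the median other cell had 6.95%, 6.46%, 5.63% and 5.70%. Mitochondrial UMIs exceeded 1% in 15 of 55, 7 of 16, 26 of 180 and 40 of 165 late cells. Depth went both ways. The median late cell held 12143, 14474, 10934 and 12713 UMIs, more than the other cells of experiment 1 (8035 and 9850.5) and fewer than those of experiment 2 (32078 and 35128). Late cells spread widely in depth, from 1386 to 189300 UMIs in CTRL 2 and from 1485 to 329980 in BU 2.

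**Figure D1:**
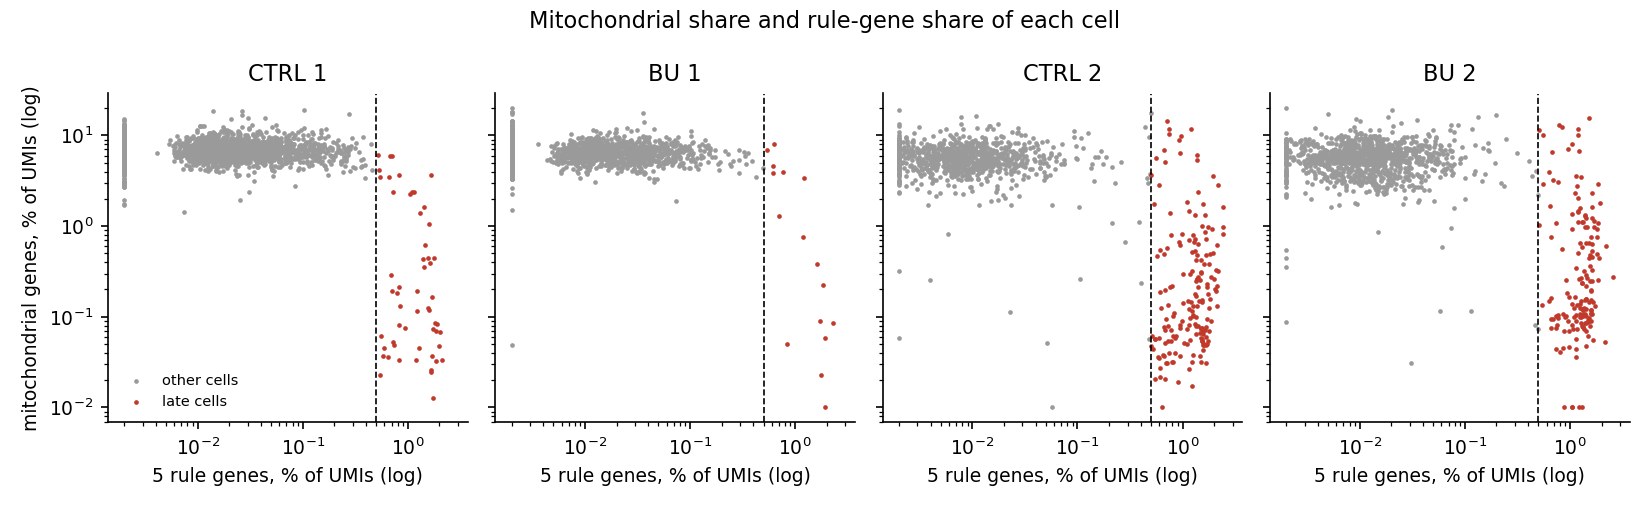
Share of mitochondrial UMIs (vertical, log axis, in percent) against the share of the 5 rule genes (horizontal, log axis, in percent) for every cell that passed the filters, 1 panel per library, with values of 0 drawn at the lower limits. The dashed line is the rule at 0.5%, and most late germ cells, to its right, lie below the other cells, at medians of 0.131% to 0.566% mitochondrial UMIs.

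Few cells lay near the threshold. Over all libraries 26 cells had 0.5% to 0.6% of UMIs in the rule genes and 18 had 0.4% to 0.5%. The 26 just inside had a median of 11896 UMIs, 0.300% mitochondrial UMIs and 12.9% of UMIs in the protamine and transition protein genes. The 18 just outside had a median of 17352 UMIs, 3.66% mitochondrial UMIs and 9.36% in those genes. Among all other cells 38 had at least 1% of UMIs in protamine or transition protein genes.

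Spermatid RNA was also found in the other cells. To compare shares of cells at 1 depth, 1000 UMIs were drawn from every cell. Prm2 was then seen in 81.8%, 62.5%, 68.9% and 57.6% of late cells and in 16.8%, 12.1%, 14.4% and 14.1% of other cells. Before thinning, at the medians of 8035 to 35128 UMIs given above, other cells with a Prm2 UMI were 53.3%, 41.9%, 93.5% and 93.6%. Spem1 was seen in 29.1%, 25%, 25.6% and 15.8% of thinned late cells and in at most 0.532% of other cells. Uchl1, an Aundiff transcript, went the other way with 12.7%, 18.8%, 3.89% and 5.45% of late cells against 66.8%, 43.4%, 66.9% and 46.7% of other cells.

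The RNAs for the proteins that package sperm DNA took the largest share of any list in the late germ cells. Prm1, Prm2, Prm3 and Tnp2 lie side by side in 17904 bases of chromosome 16 (GRCm38, 10787936 to 10805839, GENCODE M21), and Tnp1 lies on chromosome 1 (73015074 to 73015909). All are on the minus strand. Their upstream sequences are printed because these genes carry the largest share of the late RNA. They are from RefSeq (GRCm38.p6), run 5′ to 3′ on the minus strand and end at the base before the annotated start, less bases that GENCODE places in an exon of the gene, except those of a match. Capitals mark matches on either strand to TGACNTCA, the pattern of the cAMP response element with 1 base left free, which is the kind of site that the spermatid activator CREM binds, or to TATAAA, the TATA box.
Prm1, chr16:10796880-10796943: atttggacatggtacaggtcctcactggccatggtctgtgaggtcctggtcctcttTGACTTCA
Prm2, chr16:10792106-10792225: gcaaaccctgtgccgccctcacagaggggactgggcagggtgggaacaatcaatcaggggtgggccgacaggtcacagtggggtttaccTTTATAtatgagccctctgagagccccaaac
Prm3, chr16:10790915-10791034: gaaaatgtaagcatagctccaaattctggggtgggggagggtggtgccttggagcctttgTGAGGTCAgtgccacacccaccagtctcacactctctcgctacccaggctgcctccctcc
Tnp1, chr1:73015910-73016019: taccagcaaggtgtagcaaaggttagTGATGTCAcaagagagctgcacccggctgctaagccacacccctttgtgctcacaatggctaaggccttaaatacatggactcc
Tnp2, chr16:10788661-10788775: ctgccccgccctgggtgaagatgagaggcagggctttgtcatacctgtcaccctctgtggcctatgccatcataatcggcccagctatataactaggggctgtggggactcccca

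A TGACNTCA match began 64 bases before the start of Prm1, 60 before Prm3 and 94 before Tnp1, and a TATAAA match began 31 bases before Prm2. The Tnp2 sequence holds neither run of letters. Over the 32851 promoter windows of 300 bases in the same table, 8.83% hold TGACNTCA, a count that includes the 1.79% with the full element TGACGTCA, and 13.6% hold TATAAA. Of the chromatin condensation list, which holds genes of histone replacement and of late spermatids such as Crem, Tssk6, Oaz3 and Spem1, 13 of 19 genes had a window, and 7 of their 14 windows held TGACNTCA. It was found in 9 of 23 windows of the acrosome list and in 6 of 31 of the tail list. A match is a run of letters and not a shown binding site.

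Prm2 (ENSMUSG00000038015), a protamine of mature sperm, stood at 40950 CPM in the late cells of CTRL 1, 28130 in BU 1, 38410 in CTRL 2 and 19370 in BU 2. Prm1 (ENSMUSG00000022501), the other protamine, stood at 16220, 14290, 34610 and 17360 CPM. In the other cells Prm2 stood at 433, 266, 561 and 331 CPM. Late germ cells of every library thus lay far above the other cells, and both BU libraries had less Prm2 than both CTRL libraries. The transition proteins gave Tnp1 (ENSMUSG00000026182) 4786, 3769, 14060 and 7355 CPM and Tnp2 (ENSMUSG00000043050) 10720, 6592, 21770 and 13050 CPM in late cells. For Tnp1 and Tnp2 the libraries of experiment 2 lay above their partners of experiment 1.

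To describe genes and lists, levels in late and other cells were compared within each library as a log2 ratio with 0.5 CPM added to each level. The 9394 genes that reached 10 CPM in late or in other cells (either class) in every library were described, without the rule genes. Of these, 2243 (23.9%) were at least 2-fold higher in late cells in all 4 libraries, and 3920 (41.7%) were at least 2-fold lower, and genes of the lists are called higher or lower in the same sense. The median log2 ratio over all described genes was -1.46, -0.95, -1.44 and -1.03. A gene that reached 10 CPM in a library only through its late cells had to be higher in them there. Genes such as Spem1, Spaca3 and Odf3 of the lists below did so in every library. Counts of higher genes in these lists were thus partly fixed in advance. Sums over a library's cells cannot tell fewer cells with a transcript from less RNA per cell.

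All 17 described genes of the chromatin condensation list were higher in late germ cells in all 4 libraries, with a median log2 ratio of 6.37. The list took 8.77%, 6.38%, 12.01% and 6.55% of the UMIs of late cells and 0.0928%, 0.0661%, 0.155% and 0.112% of those of other cells, with Prm2 as its most abundant gene. When the other cells were restricted to those under 0.1% in the rule genes, the list's median log2 ratio, averaged over libraries, was 7.05 in place of 6.22. With the rule at 1% in place of 0.5%, which put more late cells among the other cells, it was 4.76. The spermatid linker histone H1fnt stood at 1955, 1367, 1357 and 948 CPM in late cells, and the histone variant H2afb1 at 1031, 703, 854 and 496 CPM. The antizyme gene Oaz3 stood at 3887, 2959, 1293 and 819 CPM, higher in both libraries of experiment 1. Crem, the activator of many spermatid genes, stood at 371, 420, 268 and 355 CPM, and Fhl5, its partner protein, at 810, 430, 366 and 372 CPM. The earlier germ cell histones Hist1h2ba and Hist1h2aa were under 10 CPM in the late cells of every library.

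The tail list came next. Of its 28 genes 27 were higher in late germ cells in all 4 libraries, with a median log2 ratio of 5.54, and the list took 2.18%, 1.80%, 2.05% and 1.76% of late UMIs. Smcp, a cysteine-rich protein of the sperm mitochondria, was its most abundant gene, at 5361, 4038, 5611 and 3249 CPM in late cells and 37.2, 21.7, 69.0 and 56.7 CPM in other cells. Odf2 of the outer dense fibres stood at 3476, 2739, 3484 and 2378 CPM, and Akap4, the X-linked anchor protein of the fibrous sheath, at 1299, 913, 1115 and 632 CPM. These 3 genes had less RNA in the BU than in the CTRL library of each experiment. The radial spoke gene Rsph1 went the other way across experiments, with 344 and 288 CPM in experiment 1 and 749 and 1013 CPM in experiment 2. The exception in the list was Iqcg, with a mean log2 ratio of 1.96.

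Of the 21 acrosome and egg binding genes, 18 were higher in all 4 libraries, with a median log2 ratio of 5.54. The list took 0.458%, 0.452%, 0.438% and 0.581% of late UMIs. Spaca1, a protein of the acrosomal membrane, stood at 304, 356, 453 and 608 CPM in late cells. Acr, the protease acrosin, stood at 73.7, 63.5, 137 and 186 CPM, and Izumo1, needed for fusion with the egg, at 122, 127, 81.9 and 110 CPM. In all of these the late cells lay above the other cells of the same library. Gopc, a Golgi protein needed to form the acrosome, was lower in late cells in all 4 libraries (mean log2 ratio -2.17), and Tex101 and Pick1 were not 2-fold different in every library (mean log2 ratios -1.17 and -0.69).

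**Figure D2:**
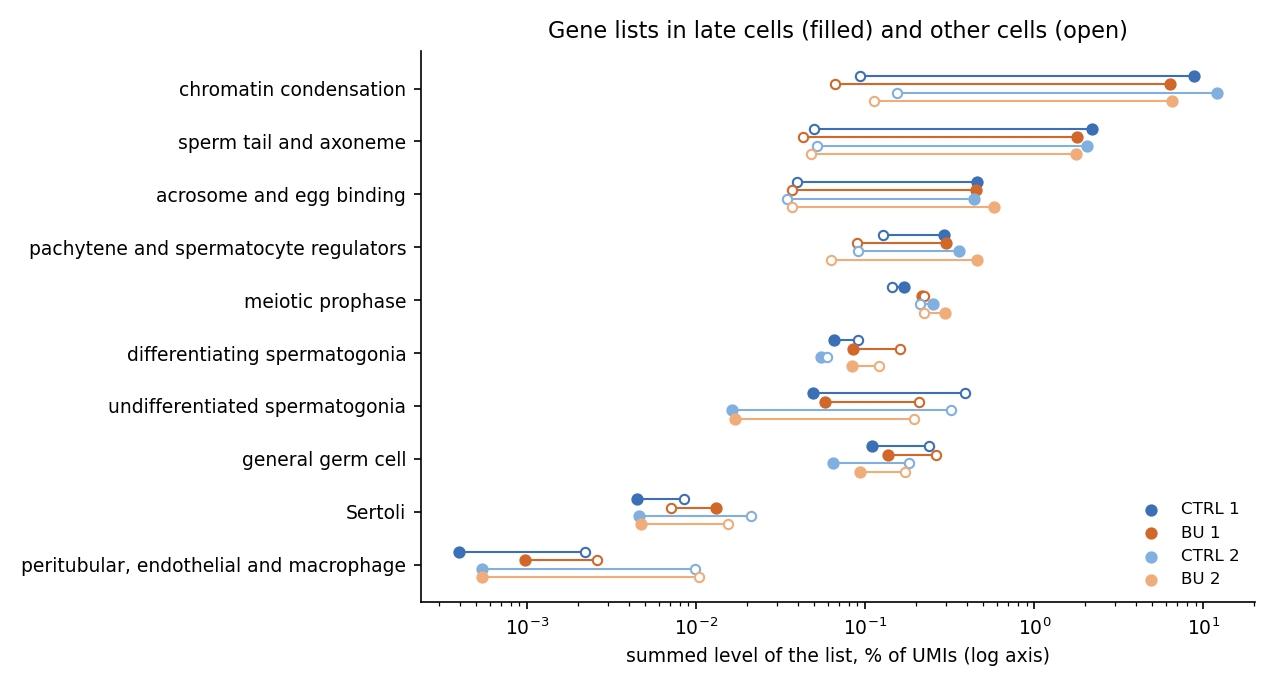
Share of UMIs (log axis, in percent) taken by each of 10 gene lists in late germ cells (filled points) and other cells (open points), 1 point per library. Chromatin condensation genes took 6.38% to 12.01% of late UMIs, and the Aundiff list lay lower in late than in other cells of the same library.

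Genes of meiotic prophase did not move together. Of 22 genes 16 were described, of which 3 were higher in late germ cells in all 4 libraries and 6 were lower, with a median log2 ratio of -0.66. Both counts are near the shares over all described genes, 23.9% higher and 41.7% lower. The higher genes were Hspa2, a chaperone of spermatocytes, Syce1 of the synaptonemal complex and Tesmin. Hspa2 stood at 376, 508, 602 and 864 CPM in late cells and between 19.7 and 33.9 CPM in other cells. The lower genes were Sycp1, Tex12, Dmc1, Tex11, Tex15 and Rnf212, which serve in pairing and recombination of chromosomes. The recombinase Dmc1 stood at 1.32, 0, 3.06 and 4.46 CPM in late cells and between 15.9 and 34.9 CPM in other cells. Prdm9 was at 0 in the late cells of experiment 1 and at 0.540 and 0.558 CPM in those of experiment 2.

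Regulators of pachytene spermatocytes and early spermatids were mostly higher. Of 21 genes 17 were described and 10 of them were higher in all 4 libraries, none lower, with a median log2 ratio of 3.80. Ybx2, which binds and stores spermatid mRNAs, stood at 578, 518, 1103 and 1117 CPM in late cells and between 17.6 and 25.5 CPM in other cells. The transcription factors Sox30 (118, 117, 130 and 135 CPM) and Rfx2 (40.8, 48.8, 56.0 and 65.4 CPM) had close values in the 4 libraries. Piwil1, which binds piRNAs of pachytene cells, stood at 23.7, 9.77, 29.5 and 74.4 CPM in late cells and between 6.61 and 12.2 CPM in other cells.

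Genes of earlier germ cells were mostly lower. None of the 16 described Aundiff genes was higher in late germ cells in all 4 libraries, 10 were lower, and the median log2 ratio was -3.12. Over all described genes 41.7% were lower. Of autosomal genes at 50 CPM or more in other cells 57.9% were lower, with a median log2 ratio of -1.84. The Aundiff list took 0.0491%, 0.0576%, 0.0163% and 0.0170% of late UMIs and 0.391%, 0.209%, 0.321% and 0.196% of other UMIs, with Uchl1 as the most abundant gene in both. Of 8 described genes of differentiating spermatogonia 6 were lower and 1 was higher. The higher one was Dmrtb1, a transcription factor at the mitosis to meiosis switch, with 534, 542, 458 and 694 CPM in late cells against 14.96, 35.2, 10.1 and 37.9 CPM in other cells. Among general germ cell genes Dazl was lower (114, 347, 44.5 and 71.2 CPM against 872 to 1638), and Ddx4 stood at 153, 259, 196 and 325 CPM in late and 233 to 344 CPM in other cells. The highest late values of Dazl and Sall4, a further Aundiff gene, were those of BU 1.

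Markers of Leydig, peritubular, endothelial and macrophage cells were close to 0 in the late germ cells, and those of Sertoli cells were low. The 8 Sertoli genes summed to 0.00448%, 0.0132%, 0.00457% and 0.00470% of late UMIs and to 0.00843%, 0.00710%, 0.0212% and 0.0155% of other UMIs, so that late cells had more in BU 1. Aard was the most abundant, at 27.6, 97.7, 24.5 and 29.0 CPM in late cells and 22.8, 22.1, 43.3 and 30.8 CPM in other cells, and Amh was at 0 in the late cells of every library. The 7 Leydig genes summed to at most 0.000263%, with Cyp11a1 as the most abundant, Hsd17b3 at 0, and Insl3 at 0, 0, 0.180 and 0.140 CPM. The 11 peritubular, endothelial and macrophage genes summed to at most 0.000977%, with Acta2 as the most abundant and Dcn and C1qa at 0.

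Over all genes, the 15 with the largest log2 ratio in their lowest library were all at 6.199 or more in every library. They were led by Hmgb4, which encodes a testis protein with HMG boxes, at 2679, 2109, 2367 and 1692 CPM in late cells and 21.1, 14.7, 17.0 and 18.3 CPM in other cells. The others were Tmco5, Galntl5, Tnp2, 1700074P13Rik, 1700129C05Rik, 1700003P14Rik, H1fnt, 4933417A18Rik, Fam71d, Fam229a, 4922502D21Rik, 4933402J07Rik, Cylc2 and Cst8. Cylc2 encodes cylicin, a protein of the sperm head skeleton, and stood at 108, 171, 441 and 454 CPM, higher in both libraries of experiment 2. Several of the 15 have no name beyond a clone number. Ratios near these were common among abundant genes with a high ratio in every library (211, 170, 173 and 161 genes). Their median log2 ratio was 6.17, 6.35, 6.12 and 5.89, with quartiles of 5.74 and 6.43 in CTRL 1. At these medians, other cells held 1.39%, 1.22%, 1.43% and 1.69% of the late level. The part of late RNA spread over other cells in these ratios was not tested.

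Of the 15 genes with the most negative log2 ratio in their highest library, 3 are on the X chromosome (Taf1, Rbmx2 and Mageb4). The furthest was 2810474O19Rik, at 5.26, 4.88, 5.58 and 6.98 CPM in late cells and 90.0, 146, 112 and 123 CPM in other cells. The phosphatase subunit gene Ppp2ca stood at 10.5, 19.5, 14.4 and 23.6 CPM in late cells and between 155 and 225 CPM in other cells. Others of the 15 were Map4k4, Pdcl3, Tnks2, Thap11, Gm16286, Phip, Kmt2c, Tiparp and Surf6.

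Ribosomal and X-linked genes gave up part of their share. The 75 cytosolic ribosomal protein genes took 4.32%, 5.56%, 4.16% and 4.44% of late UMIs and 17.4%, 14.1%, 18.3% and 16.5% of other UMIs. The X chromosome took 1.38%, 1.47%, 1.11% and 1.04% of late UMIs and 1.82%, 2.08%, 1.88% and 1.97% of other UMIs. Among genes at 50 CPM or more in other cells of every library, 57 of 70 X-linked genes (81.4%) were lower in late cells in all 4 libraries, with a median log2 ratio of -3.23. Of autosomal genes chosen alike, 1558 of 2691 (57.9%) were lower, with a median of -1.84. None of the 70 was higher in all 4 libraries, and 126 of the autosomal genes were.

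Some X-linked genes were high in late germ cells all the same. Of the 320 described X-linked genes 69 (21.6%) were higher in all 4 libraries, close to the 23.9% of all described genes. They were led by Cypt1 and Cypt3, which encode cysteine-rich proteins of the spermatid nucleus, and by Akap4. Cypt1 stood at 595, 322, 369 and 323 CPM in late cells and between 2.35 and 6.80 CPM in other cells. Of the list of sex-chromosome spermatid genes 7 of 15 were described and all 7 were higher, beside 23.9% of all described genes. Cypt1, Cypt2, Cypt3, Fthl17a and Tsga8 were under 10 CPM in the other cells of every library. They were described through their late cells alone, so their direction was fixed in advance. The Y-linked genes Sly and Ssty2 were detected in late cells of every library (4.88 to 19.0 CPM and 4.88 to 12.1 CPM). Members of these multicopy families share near-identical sequence, so their counts are uncertain.

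Testis isoforms and their widely used counterparts were compared in 24 pairs. Leaving out the rule gene Ldhc, 14 of the 23 isoforms were higher in late germ cells in all 4 libraries. The counterpart was lower in 14 of the 24 pairs, near the 57.9% of autosomal genes at 50 CPM or more in other cells that were lower, and both held in 8. In glycolysis, Gapdhs, the sperm form of glyceraldehyde-3-phosphate dehydrogenase, stood at 2731, 1938, 2747 and 1466 CPM in late cells against 34.5, 20.9, 38.3 and 23.6 CPM in other cells. Its counterpart Gapdh stood at 154, 356, 69.7 and 115 CPM in late cells against 1231 to 1875 CPM in other cells. The pair thus exchanged places between the cell classes. Ldhc did not replace Ldha in this way, since Ldha was also higher in late cells, at 479, 405, 452 and 569 CPM against 33.2 to 66.9 CPM.

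The respiratory chain gave the same exchange for some subunits only. Cox8c stood at 421, 542, 974 and 1355 CPM in late cells against 30.3 to 70.6 CPM in other cells, and Cox8a at 94.8, 283, 60.3 and 73.2 CPM against 994 to 1143 CPM. Cox7b2 was not 2-fold higher in every library (mean log2 ratio 0.87). Of the 9 X-linked counterparts 6 were lower in all 4 libraries, beside 59.1% of the described X-linked genes and 81.4% of those at 50 CPM or more in other cells. They included Pdha1 of pyruvate dehydrogenase, at 5.26, 4.88, 1.80 and 1.81 CPM against 41.4 to 48.5 CPM. Isoforms that were not higher included Slc25a31, the ADP/ATP carrier of germ cells, and Taf7l, a transcription factor subunit, with mean log2 ratios of -2.43 and -2.91. Both stood between 299.7 and 427 CPM in the other cells.

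**Figure D3:**
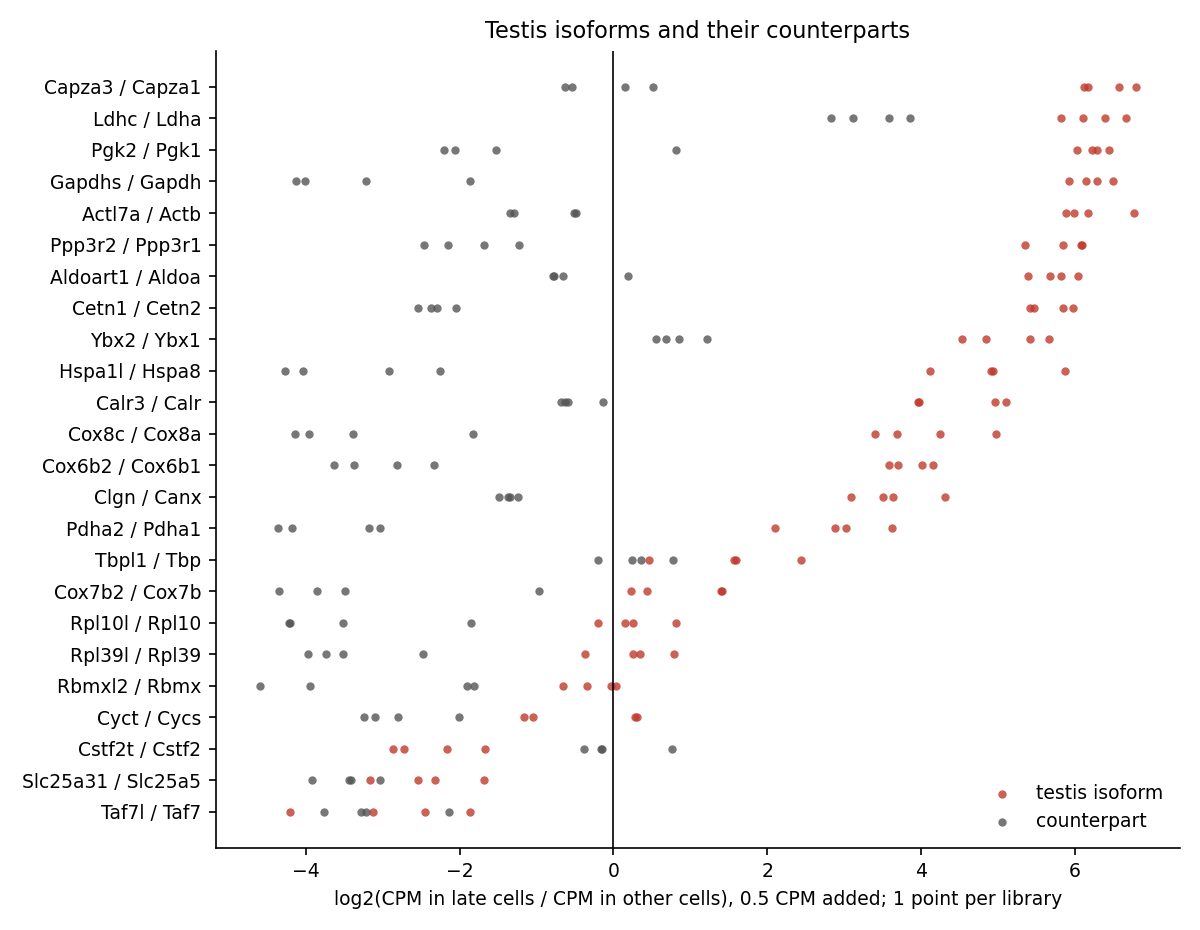
Log2 ratio of late over other cells (horizontal, 0.5 CPM added) for the testis isoform and the counterpart of 24 pairs, 1 point per library. Isoforms such as Gapdhs, Pgk2 and Capza3 lie near 6, while Gapdh, Hspa8 and most X-linked counterparts lie below 0.

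The late germ cells were not alike. Their protamine and transition protein RNA fell along a bent line, and they were divided after these values were seen into 3 ranges with borders at 1% of UMIs. Protamine-low cells had under 1% in Prm1 and Prm2 and under 1% in Tnp1 and Tnp2, transition protein-high cells had at least 1% in Tnp1 and Tnp2, and the remainder had protamine RNA without it. The ranges are parts of a continuum and not cell types, and they rest on the same genes that separate them. Protamine-low cells numbered 16, 9, 84 and 93 in the 4 libraries, transition protein-high cells 28, 4, 55 and 43, and protamine-high, transition protein-low cells 11, 3, 41 and 29. Within a factor of 2 of a border lay 1, 1, 4 and 3 of the protamine-low cells, 10, 2, 6 and 7 of the transition protein-high cells and 5, 2, 9 and 10 of the remainder.

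**Figure D4:**
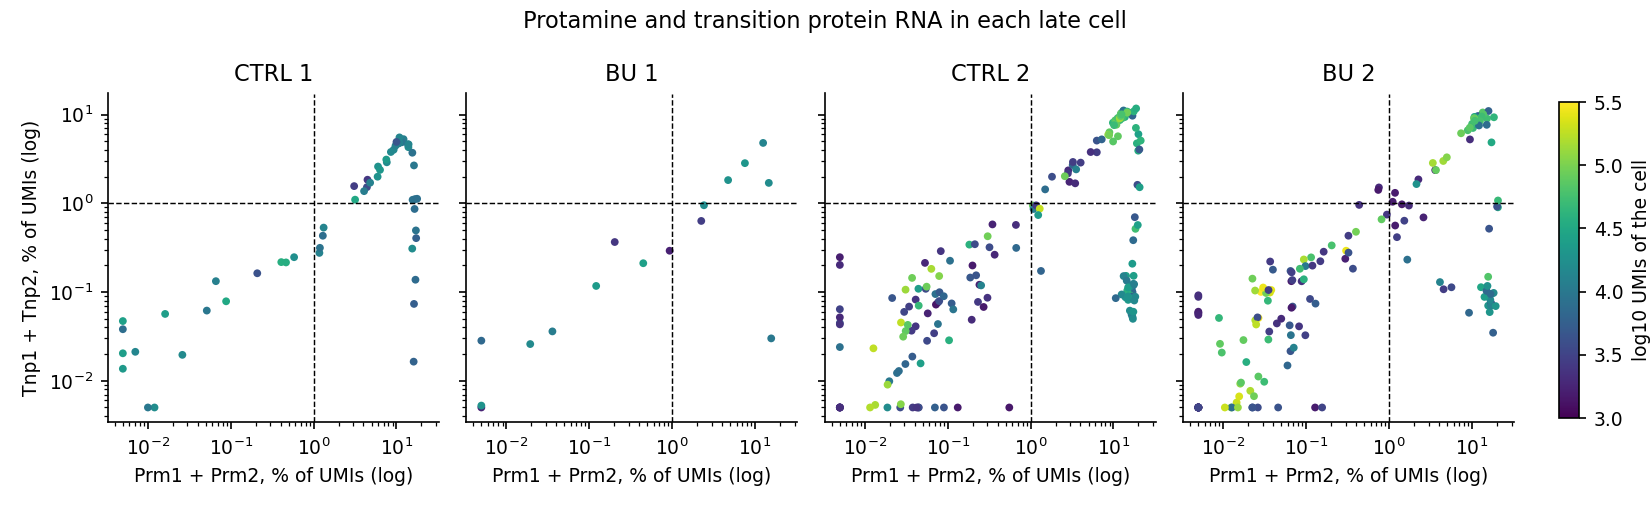
Share of UMIs in Tnp1 and Tnp2 (vertical, log axis, in percent) against the share in Prm1 and Prm2 (horizontal, log axis, in percent) for each late germ cell, 1 panel per library, coloured by the log10 of its UMIs, with values under 0.005% drawn at 0.005%. Lines mark the borders at 1%, and the cells run from low in both shares over high in both to high protamine with low transition protein RNA.

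Protamine-low cells held most of the acrosome and spermatocyte RNA. The acrosome list took 0.750%, 0.730%, 0.760% and 0.761% of their UMIs, against 0.283%, 0.164%, 0.202% and 0.241% in transition protein-high cells. Spaca1 stood at 602, 671, 889 and 828 CPM in protamine-low cells and at 93.7, 14.6, 92.2 and 172 CPM in transition protein-high cells. Hspa2 stood at 855, 932, 1302 and 1270 CPM against 39.7, 29.2, 43.2 and 51.1 CPM. The 12 genes that led this range in CTRL 1, CTRL 2 and BU 2, the libraries with at least 10 cells in each range, included Tuba3b, Acyp1, Lyar, Fsip1, Ccdc113, Cox7b2 and Cfap36. Crem was also highest there (722, 717, 500 and 486 CPM against 68.3 to 133 CPM in transition protein-high cells).

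Transition protein-high cells were led by Cby3, Gm136, Cstl1, Tex37, Prss58, Prss52, Defb33 and Tfam. Hmgb4 stood at 4584, 3593, 4679 and 4092 CPM in them, at 698 to 1463 CPM in protamine-low cells and at 230 to 1001 CPM in protamine-high, transition protein-low cells. The linker histone H1fnt followed with 3063, 2527, 2561 and 2317 CPM. The median cell of this range held 12048, 17306, 42226 and 49923 UMIs, more than either other range in BU 1, CTRL 2 and BU 2.

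Protamine-high, transition protein-low cells were led by Tppp2, Car2, Reep6, 4930544D05Rik, Tbc1d20, Iqcf4 and Prkar2a, the last encoding a regulatory subunit of protein kinase A that anchors in the tail. Smcp stood at 8725, 7522, 13100 and 16700 CPM there and at 1382 to 1860 CPM in protamine-low cells. Meig1 stood at 1141, 1656, 1783 and 397 CPM, below its 4992 to 5673 CPM in protamine-low cells. The median cell held 1417, 1684, 1838 and 1564 genes, the fewest of the 3 ranges in every library.

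The first question on treatment was whether late germ cells were rarer or more common after BU. They made up 1.77% of the cells of CTRL 1 (exact binomial 95% interval 1.34 to 2.30), 0.797% of BU 1 (0.456 to 1.29), 16.1% of CTRL 2 (13.97 to 18.4) and 13.1% of BU 2 (11.2 to 15.04). These intervals cover counting error only. The CTRL libraries had a mean share of 8.92% ± 10.1 and the BU libraries one of 6.93% ± 8.67 (SD, n = 2 libraries each). BU minus CTRL was -2.00 percentage points (two-sided exact permutation test, p = 0.67, where 4 libraries allow no p under 0.33). The difference was -0.977 points in experiment 1 and -3.02 points in experiment 2, within shares that lay much further apart between the experiments. The shares are of sorted cells and not of the testis. With cells of over 500 genes the difference in experiment 2 was 0.694 points in the other direction.

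The make-up of the late germ cells was compared next. Late cells with at least 1% protamine or transition protein RNA were 70.9% of all late cells in CTRL 1, 43.8% in BU 1, 53.3% in CTRL 2 and 43.6% in BU 2. Both BU libraries lay below both CTRL libraries, by 27.2 and 9.70 points within the experiments. Over the libraries of a group the means were 62.1% ± 12.4 for CTRL and 43.7% ± 0.0804 for BU (SD, n = 2 libraries each), with an exact permutation p of 0.33, the smallest that 4 libraries allow. Without the shallow copies the shares were 70.9%, 43.8%, 58.3% and 46.7%. The median protamine-low cell held 4451.5 and 4635 UMIs in experiment 2, fewer than in the other ranges, and the part of depth in this share was not tested.

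Gene by gene, UMIs were summed over the late cells of each library and BU was tested against CTRL with edgeR's quasi-likelihood test. With condition as the only term, 0 of 11099 genes (0%) had a Benjamini-Hochberg adjusted p under 0.05, and 230 had an unadjusted p under 0.05. DESeq2 also called 0, with 170 at an unadjusted p under 0.05. The labels pair CTRL and BU libraries by sequencing lane and kit, and with the experiment as a replicate block 314 genes (2.83%) were called, of which 256 (2.31%) were lower in BU and 58 (0.523%) higher. DESeq2 with the block called 225, with 218 lower and 7 higher, of which 195 were among the 314. The calls therefore depend on the block, and each is given with that fit.

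Protamine and transition protein genes were lower in late cells of BU than of CTRL in both experiments. Prm2 stood at 44270 CPM after TMM scaling in CTRL 1, 24460 in BU 1, 44040 in CTRL 2 and 18510 in BU 2, and the groups did not overlap (log2 fold change -1.05, SE 0.231, adjusted p = 0.00248 in edgeR with the block and 1.00 without). Prm1 stood at 17540 and 12420 CPM in experiment 1 and at 39690 and 16590 in experiment 2 (-0.88, SE 0.229, adjusted p = 0.0124 in edgeR with the block). Tnp2 stood at 11590 and 5732 CPM and at 24970 and 12470 (-1.01, SE 0.226, adjusted p = 0.00296 in edgeR with the block). For Tnp2 the groups overlapped across the experiments, and for Prm1 they overlapped in the unscaled CPM given above but not after TMM scaling. Tnp1 was lower as well (log2 fold change -0.93), and Prm3 did not pass (-0.67, adjusted p = 0.0769 in edgeR with the block). Of the 18 chromatin condensation genes tested, 10 were called lower and none higher, against 2.31% called lower over all genes, with a median log2 fold change of -0.81 against 0.09 over all genes tested.

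Other genes of late spermatids were lower too. Spem1 stood at 280, 161, 415 and 165 CPM after TMM scaling (log2 fold change -1.13, SE 0.254, adjusted p = 0.0031 in edgeR with the block), so that both BU libraries lay below both CTRL libraries. Gapdhs stood at 2953, 1686, 3151 and 1401 CPM, again without overlap (-0.99, SE 0.222, adjusted p = 0.00296 in edgeR with the block). The kinase genes Tssk3 (-0.999) and Tssk6 (-0.97) and the histone variant H2afb1 (-0.96), which belong to the chromatin condensation list, were lower as well. In the tail list 4 of 28 genes were called lower, namely Akap4 (-0.96), Smcp (-0.89), Spata18 (-0.84), a protein linked to mitochondrial quality control, and Odf2 (-0.74), with a list median of -0.22. Odf2 did not pass once doublets were left out (adjusted p = 0.0687 in edgeR with the block). Cypt1 (-0.77) and Akap4 were the called genes of the 12 tested sex-chromosome spermatid genes, and Gapdhs and Hspa1l (-0.82) those of the 24 testis isoforms, all lower, against the same 2.31% over all genes. Of the 2243 tested genes at least 2-fold higher in late cells in every library, 220 were called lower. That is a nearer yardstick for these spermatid lists than 2.31%, and an excess over it was not tested.

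The acrosome, pachytene and Aundiff lists held no called gene, which is near the 2.83% called over all genes for lists of this size. None of the 21 acrosome genes passed, with a median log2 fold change of 0.01. Spaca1 stood at 329, 310, 520 and 581 CPM after TMM scaling (log2 fold change 0.06, SE 0.236, adjusted p = 0.974 in edgeR with the block), and its groups overlapped. The rule genes Acrv1 (320, 289, 336 and 366 CPM after TMM scaling) and Ldhc (5703, 3630, 4730 and 4438 CPM) chose the cells, so their levels are given without a test. None of the 20 pachytene regulators tested passed (median 0.14), nor any of the 16 Aundiff genes (median -0.33).

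By the rule for the most changed genes, the 10 largest decreases with the block were in Gm43001, RP23-421O10.11, Gm614, Rsf1os1, Gsdma, Rnf144a, 4933402P03Rik, C1qb, Itpr3os and Ttll2, with log2 fold changes from -1.34 to -1.58. In BU 1, Gm43001, Rsf1os1, Rnf144a, C1qb and Ttll2 each stood at 4.25 CPM after TMM scaling, and Gsdma at 8.49 CPM. At the depth of BU 1 these levels are near the detection limit, so these decreases rest on very few UMIs there. The best measured was 4933402P03Rik, a gene without a known role, at 406, 144, 339 and 138 CPM after TMM scaling (adjusted p = 0.000611 in edgeR with the block). Itpr3os, a transcript opposite Itpr3, stood at 238, 93.4, 322 and 128 CPM. C1qb encodes a complement protein of macrophages, and the macrophage markers C1qa, Cd68 and Lyz2 were at 0 to 0.540 CPM in the late cells. Ptprc, from the list that holds these markers, stood at 0, 4.88, 0.180 and 0.698 CPM in late cells and at 0.0777, 0.962, 0.244 and 0.730 CPM in other cells. The part of macrophage RNA in this call was not tested. In Rsf1os1, the direction turned in the fit without CTRL 2, as given in the closing section.

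The 10 largest increases were in Ccna2, Ccng1, Crabp1, Rnpc3, Parg, Bdp1, Zfp638, Mcm2, Ccnd2 and Btaf1. Ccnd2, a cyclin of spermatogonia, stood at 21.3, 132, 15.9 and 32.1 CPM after TMM scaling (log2 fold change 1.53, SE 0.3297, adjusted p = 0.00207 in edgeR with the block). Ccna2, a cyclin of dividing cells, stood at 1.42, 29.7, 2.89 and 10.7 CPM (2.29, SE 0.550, adjusted p = 0.00601 in edgeR with the block). The BU 1 library, with its 16 cells, was the highest for both. When the rule was set at 1% in place of 0.5%, the change of Ccnd2 turned to -0.92 (adjusted p = 0.247 in edgeR with the block) and Ccna2 did not pass (1.23, adjusted p = 0.282). Without doublets Ccna2 also missed the threshold (adjusted p = 0.0598 in edgeR with the block). Mcm2, a replication factor of dividing cells, did not pass without doublets (adjusted p = 0.148 in edgeR with the block), with the rule at 1% (0.528) or at 0.25% (0.442), without the shallowest late cells (0.0541) or in cells under 1% mitochondrial UMIs (0.329). Over all genes tested 0.523% were called higher. In the gene lists, Ccnd2 and Crabp1 were 2 of the 8 tested genes of differentiating spermatogonia, and Tex15 was the 1 called gene of 18 for meiotic prophase (0.93, adjusted p = 0.0489 in edgeR with the block). Rpl39, the X-linked ribosomal counterpart of Rpl39l, stood at 9.96, 38.2, 15.5 and 36.1 CPM (1.36, SE 0.376, adjusted p = 0.0214 in edgeR with the block). It did not pass without doublets (adjusted p = 0.0760 in edgeR with the block), with the rule at 1% (0.47, adjusted p = 0.799) or in cells under 1% mitochondrial UMIs (0.50, adjusted p = 0.678).

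**Figure D5:**
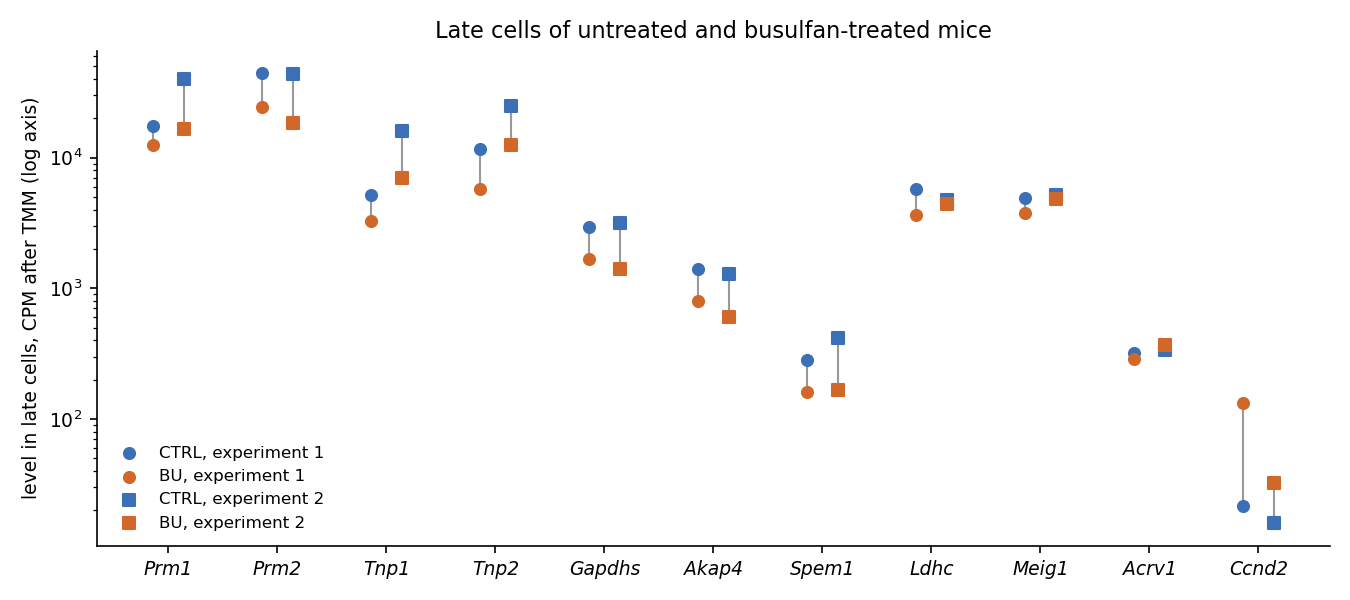
Level in late germ cells of 11 genes (CPM after TMM scaling, log axis) in the CTRL and BU library of each experiment, joined by a line for each experiment. Prm2, Gapdhs and Spem1 are lower in both BU libraries than in both CTRL libraries, and Ldhc, Meig1 and Acrv1 are rule genes, shown as a description.

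The genes called in the 2 directions differed in where they were high to begin with. Of the 256 lower in BU, 220 (85.9%) were at least 2-fold higher in late than in other cells in all 4 libraries, against 20.2% of all genes tested. Of the 58 higher in BU, 1 was, and 45 (77.6%) were at least 2-fold lower in late than in other cells, against 29.0% of all genes tested. The part of RNA from other cells in these calls was not tested. Mitochondrial RNA moved with the groups, at 1.03%, 2.04%, 0.419% and 0.764% of the summed late UMIs, higher in the BU library of each experiment. The median mitochondrial share per late cell differed between BU and CTRL with an exact permutation p of 0.33, the smallest possible.

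When late cells with 1% or more mitochondrial UMIs were left out, 480 genes were called with the block, of which 465 were lower in BU and 15 higher. The log2 fold change of Prm2 was then -1.45 (adjusted p = 0.0366 in edgeR with the block) and that of Tnp2 -1.57 (adjusted p = 0.00354 in edgeR with the block). Ccnd2 then did not pass (1.05, adjusted p = 0.455 in edgeR with the block). Without the cells marked as doublets, which were 1 late cell each in CTRL 2 and BU 2, the number called fell to 160, of which 149 were lower and 11 higher, and all 160 were among the 314. The marked cell of BU 2 held 138218 UMIs, 1.90% of the late UMIs of that library.

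On each side of the border at 1%, protamine and transition protein genes were not called, in sets of cells that were divided on these same genes. The division itself fixed part of their difference within each set, so no conclusion is drawn from the missing calls. Among late cells with at least 1% protamine or transition protein RNA, 132 of 7155 genes were called with the block, 125 higher in BU and 7 lower, and 30 of them were among the 314. There Prm2 had a log2 fold change of -0.45 (adjusted p = 0.106), Tnp2 of -0.41 (adjusted p = 0.245) and Gapdhs of -0.55 (adjusted p = 0.239), all in edgeR with the block. In late cells below 1%, 4 of 9032 genes were called, all lower in BU. The log2 fold change of Prm2 was 0.10 there (adjusted p = 1.00 in edgeR with the block). Ccnd2 was higher in the cells above 1% (3.33, adjusted p = 3e-05 in edgeR with the block) and not in those below (-0.06). Over all late cells, Prm2 was lower in both BU libraries, which also had the smaller share of cells above 1%. That share is defined by protamine and transition protein RNA itself, and a link between the 2 was not tested.

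The last comparison asked whether BU changed genes differently in late germ cells than in the other cells of the same libraries. The test was the interaction of cell class and condition in edgeR with each library as a block. Of 17055 genes 4 (0.0235%) were called, Olfr71, Speer4a, Crmp1 and Gm2832, all with a mean level under 5 CPM and outside the rule for named genes, and DESeq2 called 0 (368 at an unadjusted p under 0.05). With the experiment as a replicate block also within the late cells, 147 (0.862%) were called. Of these, 73 (0.428%) had a lower change in late than in other cells and 74 (0.434%) a higher one. Of the 73, 24 were also called lower in BU within the late cells, and of the 74, 5 were also called higher.

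Among the genes with the largest differences were some whose levels in the other cells of BU and CTRL lay apart. Lhx1, a transcription factor of stem cell-rich Aundiff, stood in other cells at 13.8 CPM after TMM scaling in CTRL 1, 64.0 in BU 1, 16.4 in CTRL 2 and 92.8 in BU 2, and in late cells at 4.44, 4.29, 12.4 and 9.29 CPM (log2 difference of changes -2.87, SE 0.483, adjusted p = 9.76e-06 in edgeR with the block, 0.317 without). Upp1, a gene of progenitors, stood in other cells at 182, 11.6, 134 and 11.7 CPM and in late cells at 22.2, 12.9, 5.28 and 2.55 CPM (2.65, SE 0.572, adjusted p = 0.00197 in edgeR with the block, 0.649 without). Cdkn1a, an inhibitor of the cell cycle that p53 induces, stood in other cells at 18.9, 74.5, 14.7 and 92.4 CPM and in late cells at 13.3, 21.4, 8.03 and 5.84 CPM (-2.71, adjusted p = 4.71e-05 in edgeR with the block). In each of the 3 genes the other cells of the BU and CTRL libraries did not overlap, whereas the late cells did across the experiments. These genes were named for their large differences, and the share of all genes with such a pattern was not counted. The late levels were low, and those of BU 1, such as 4.29 CPM for Lhx1 and 12.9 CPM for Upp1, rest on very few UMIs. Within experiments 1 and 2, the BU over CTRL log2 ratio in late cells was -0.764 and -0.923 for Upp1. It was -0.0447 and -0.397 for Lhx1 and 0.667 and -0.428 for Cdkn1a.

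Fbxo2, a subunit of a ubiquitin ligase that binds glycoproteins, had opposite changes in the cell classes. It stood in late cells at 28.1, 17.1, 32.4 and 17.4 CPM after TMM scaling and in other cells at 2.69, 9.26, 1.64 and 9.69 CPM (log2 difference of changes -3.28, SE 0.516, adjusted p = 3.92e-06 in edgeR with the block, 0.0691 without). The other 7 genes with the largest lower differences were Fam131b, Chga, Scube2, Dclk1, Rnf144a, Tspan18 and H2-Ab1. Among the 10 largest higher differences were also those of Kif5a, Gm13075, Cmklr1, Utf1, E130308A19Rik, Fbxw27, Ccdc180 and Stox2. Utf1, a gene of undifferentiated cells, stood in other cells at 39.4, 8.88, 21.4 and 5.22 CPM and in late cells at 5.92, 8.57, 2.06 and 4.64 CPM (3.09, SE 0.689, adjusted p = 0.00309 in edgeR with the block).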

How the data were processed

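The authors deposited UMI count matrices of 4 10x 3′ libraries, made with Cell Ranger 3.0.2 per the file headers. The study's methods name mm10, and the submitters' processing notes name GRCm39, Cell Ranger and Seurat 3.2. Gene positions are from GENCODE M21 (GRCm38). The late germ cells and all gene lists were chosen with earlier results of these data known. UMIs were summed over late and over other cells of each library for the 27514 genes found in all 4 matrices. Genes were filtered with filterByExpr, scaled by TMM and tested with edgeR 4.0.16 (R 4.3.3) at a Benjamini-Hochberg adjusted p of 0.05, with DESeq2 1.42.0 as an alternative. Named genes were the list and isoform-pair members, the 15 genes furthest apart between late and other cells in each direction (50 CPM or more in the class where they were high), and the 10 largest changes each way that passed, went the same way in both experiments and averaged 10 CPM or more. Where none passed, the fit with the replicate block was used. Some genes named by this rule are not reported here. The labels pair the libraries by sequencing lane and kit, and within experiment 1 the departures of both libraries from the average of their condition correlated at 0.491 over genes. The biological coefficient of variation was 0.392 without the block, on 2 residual degrees of freedom, and 0.155 with it, on 1. On simulated counts of 8169 genes, the test of BU against CTRL with the block recovered 86.7% of genes changed by 1.5 on the log2 scale and made 15 false calls. For the interaction test of cell class and condition, on 15553 genes, 26.3% were recovered at that change, with 1 false call. The simulated spread was set close to the 0.155 of the block fit in both tests, although the interaction fit gave 0.250. Genes with few UMIs were left out, and the sampling of few cells, as in BU 1, was not simulated. These rates hold for that setting and are no check of the calls in these data. Doublets were scored with Scrublet in scanpy 1.11.5, whose own threshold marked fewer than expected, so the expected rate of 0.8% per 1000 barcodes was used, and marked cells were left out only as an alternative. Intervals are exact Clopper-Pearson (95%) and cover counting error only. Counting by strand is not given in the sources used here, so antisense transcripts such as Itpr3os and Rsf1os1, and multicopy genes such as Speer4a, are uncertain.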

Additional observations from a re-analysis of the deposited data

Results flagged for a closer look

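In 4 genes the change after BU differed between late germ cells and other cells by the interaction test of edgeR without the replicate block, all at low levels. The adjusted p was 0.0122 for Olfr71, 0.0122 for Speer4a, 0.00921 for Crmp1 and 0.00499 for Gm2832. Their mean levels were 0.298, 2.06, 3.45 and 4.08 CPM. Olfr71 had UMIs in the late cells of CTRL 2 and the other cells of BU 2 alone, and its adjusted p was 0.0587 with the block. Crmp1 stood in other cells at 0.730, 4.34, 0.338 and 5.24 CPM after TMM scaling and in late cells at 5.91, 0, 7.11 and 3.90 CPM. Gm2832 stood in other cells at 10.03, 0.909, 6.96 and 0.566 CPM.

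Barcodes that failed the filters also held late germ cell RNA. In BU 2, 35.5% of the 595 barcodes outside the filters reached 0.5% in the rule genes, against 18.02% of 899 in CTRL 2. In experiment 1 the order was the opposite, with 49.4% of 160 in CTRL 1 and 19.5% of 82 in BU 1. These barcodes entered no comparison other than the share of late germ cells recomputed for cells with over 500 genes.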

How the results depend on the processing

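The replicate block moved the number of genes called between BU and CTRL in late germ cells from 0 to 314. Without the block, leaving out 1 library gave 0 to 14 calls. Within the block fit, the number was 160 without doublets, 480 for late cells under 1% mitochondrial UMIs, 132 for those at 1% or more in protamine or transition protein genes and 4 for those under it, and it lay within 1.5 times under the other alternatives. No library could be left out of that fit, which would have no residual degrees of freedom. For the difference between late and other cells the number was 147 with the replicate block, 0 with DESeq2, 0 for late cells at 0.25% or more, 62 for late cells under 1% mitochondrial UMIs and 0 to 9 with 1 library left out. The difference in share, -2.00 points in the main setting, was -0.437 with the rule at 1% and -0.595 with cells of over 500 genes. It was negative under every alternative that kept all 4 libraries. With 1 library left out it ran from -9.15 to 5.15 points (4.13 without BU 1 and 5.15 without CTRL 2). Rsf1os1 reversed to 0.74 on the log2 scale without CTRL 2, and ran down to -2.63 with 1 library left out. Genes at least 2-fold lower in late cells numbered 2488 for late cells at 0.25% or more, and stayed within 1.5 times otherwise. The causes were not tested. Depth limits BU 1 most, with 205447 UMIs in 16 late cells. The ranges, the sets at 1% in protamine genes, the set under 1% mitochondrial UMIs, the removal of shared barcodes and the replicate block of the test between cell classes were chosen after seeing the data. DESeq2 with the block, the other alternatives within the block fit and the share with 1 library left out were also not planned.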
